A study of Mus musculus with 8 samples.

Results

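Astrocytes are the glial cells that surround synapses and blood vessels. The genes described here are 39 that are widely used as markers of astrocyte identity, of astrocyte transport or of the reactive state. Members were found by the gene name that the array files give each probe. A probe of that name was present for 38 of the 39 genes, 77 probes in all out of 56605 on the array, which carry 37074 gene names. No probe had the name Kcnj10os.

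RNA came from the whole cerebral cortex and striatum of male mice, 1 mouse per array, with 4 BTBR/R and 4 B6 mice. BTBR/R is the subline BTBRTF/ArtRbrc of the inbred BTBR strain, used as a model of autism spectrum disorder, and B6 is the inbred strain C57BL/6J, the control. The B6 mice and BTBR/R mice 2 to 4 were 4 months old, and BTBR/R mouse 1 was 6 months old. The B6 mice were bought from a breeder and the BTBR/R mice came from a resource bank, so origin and strain cannot be told apart. No treatment is described other than the anesthetic given to each mouse.

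Astrocytes clear glutamate and potassium from around synapses, convert glutamate to glutamine, and hold water channels in the end-feet that they set on vessels. They are joined into networks by gap junctions of connexins. After injury or inflammation they become reactive, raise intermediate filaments such as Gfap and secrete acute-phase proteins such as Lcn2. Metallothioneins are small cysteine-rich proteins that bind zinc and copper, and astrocytes are a main source of them in the brain. Several of the listed genes are also read in other cells, among them Clu, Cpe, Vim and the metallothioneins.

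All values below are scaled signals: the log2 of a probe's processed signal minus the 75th percentile of that quantity on its array, so that 1 unit is 2-fold and 0 is the signal at that percentile. A scaled signal is compared between mice for 1 probe and not between probes. A change is BTBR/R minus B6 in limma, fitted on all probes, and a gene passed at an adjusted p below 0.05 (Benjamini-Hochberg over all probes). Each gene is given by 1 representative probe, the one detected on the most arrays. In B6, 64.5% to 66.8% of the probes were detected per array, and in BTBR/R 53.5% to 57.2%. The lowest detected processed signal was 14.5 to 17.8 in B6 and 36.1 to 47.1 in BTBR/R. Counts of genes therefore use only the 37 members whose representative probe was detected on all 8 arrays. The defining markers Aldh1l1, Gfap, Aqp4, Slc1a2 and Slc1a3 were among them. Lcn2 was the exception, with 4 B6 and 3 BTBR/R arrays. All arrays shared 1 slide and 1 scan, and the B6 arrays filled one column of the slide and the BTBR/R arrays the other, which leaves strain and position on the slide impossible to separate. In pieces of whole tissue, fewer astrocytes and less RNA per astrocyte cannot be told apart.

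Most astrocyte genes did not pass or were moderately lower in BTBR/R, with the 3 metallothioneins and the transcriptional regulator Id4 far below the rest. Of the 37 members, 15 were lower, 3 were higher and 19 did not pass. Over all 28547 probes detected on all 8 arrays, 13.9% were lower and 13% higher by the same call. Counts of passed genes in the lists below, in this fit, are to be read beside these shares. The median change was -0.15 over the members and 0.0015 over all those probes, of which 91.5% changed by less than 0.5 in either direction. A change of at least 2-fold was found for Mt3, Mt2 and Id4, all lower. By that call 1.16% of all probes were lower and 1.04% higher, 2.2% together. The 4 B6 values and the 4 BTBR/R values did not overlap for 14 members that were lower and 3 that were higher, against 16.4% and 16.3% of all probes. Without B6 mice 2 and 3, which had the highest red blood cell gene signals, 7 members were lower, 1 was higher and 2 changed by 2-fold, in a fit with 6 arrays in which 7.39% of all probes were lower and 6.81% higher. Mt1, Mt2, Mt3, Id4, Ppap2b, Gjb6, Htra1 and Ntsr2 passed in that fit and in each of the other 19 settings tried for single genes.

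**Figure D1:**
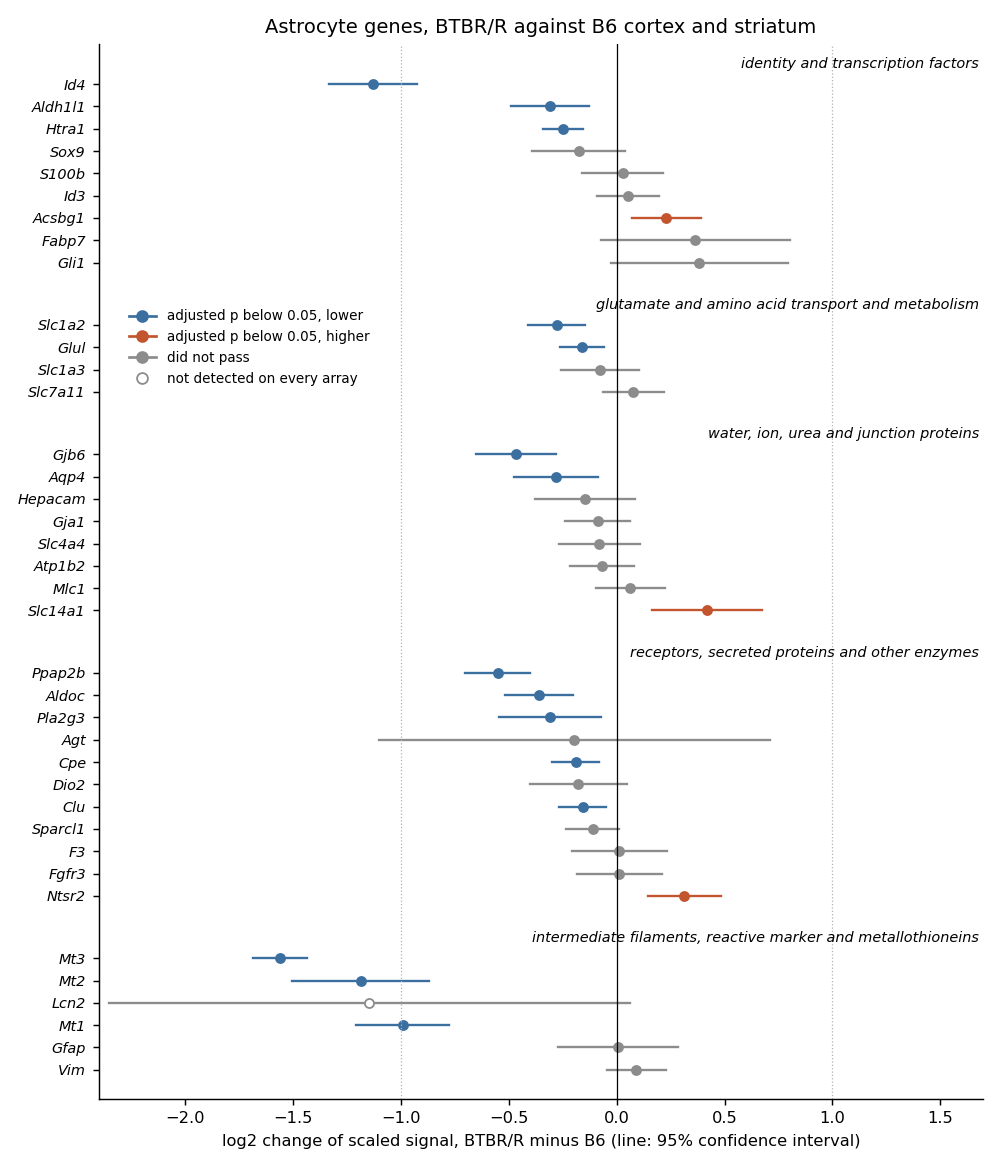
Change of each astrocyte gene between BTBR/R and B6 mice, as the log2 change of the scaled signal of its representative probe (point) with its 95% confidence interval (line), grouped by role. Blue points passed lower, red points passed higher, grey points did not pass, and the open point marks Lcn2, which was not detected on every array. Mt3, Mt2, Id4 and Mt1 lie at or beyond -0.99, and every other gene that passed lies between -0.55 and 0.42.

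Among the metallothioneins, all 3 members fell. Mt3 is the isoform found mainly in the brain, while Mt1 and Mt2 are made in most tissues and are switched on by metals and stress hormones. For Mt3 the scaled signal was 3.13, 3.20, 3.16 and 3.09 in B6 mice 1 to 4 and 1.64, 1.65, 1.52 and 1.52 in BTBR/R mice 1 to 4. For Mt2 it was 6.55, 6.90, 6.83 and 6.30 in B6 and 5.59, 5.40, 5.43 and 5.43 in BTBR/R. For Mt1 it was 7.39, 7.57, 7.60 and 7.24 in B6 and 6.56, 6.42, 6.47 and 6.38 in BTBR/R. Every BTBR/R mouse lay below every B6 mouse for each of the 3 genes. Mt3 changed by -1.56 ± 0.05 (SE, n = 4 and 4, limma, adjusted p = 3.78e-06), a level 2.95-fold lower. The change was -1.19 ± 0.14 for Mt2 (limma, adjusted p = 0.000278, 2.28-fold lower) and -0.99 ± 0.09 for Mt1 (limma, adjusted p = 7.74e-05), just inside the 2-fold limit at 1.99-fold. A second, much dimmer Mt1 probe, placed on a predicted transcript, ranged from -2.11 to -1.16 in B6 and from -2.57 to -1.26 in BTBR/R, and its change of -0.29 ± 0.33 did not pass. The 60-base probes of Mt1, Mt2 and Mt3 shared no run longer than 7 bases, and at most 24 bases matched in any ungapped alignment of a pair.

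The spread of Mt1 and Mt2 lay within B6. The SD was 0.169 for Mt1 and 0.275 for Mt2 in B6, against 0.0772 and 0.0846 in BTBR/R, whereas Mt3 varied little in either strain, with SDs of 0.0482 and 0.072. B6 mice 2 and 3 had the highest Mt1 and Mt2 signals, and they also had the highest signals of Lcn2 and of the red blood cell genes. The haemoglobin gene Hba-a1 read 6.33, 7.73, 7.05 and 6.07 in B6 mice 1 to 4 and 5.80, 5.54, 5.64 and 5.49 in the BTBR/R mice. Of 5 red blood cell genes detected on all 8 arrays, 4 were lower (Hbb-bt not under normexp, another background correction, limma, adjusted p = 0.0510), with a median change of -1.18, and the mean level of the list ran from 2.99 to 4.79 over the B6 mice and from 2.45 to 2.75 over the BTBR/R mice. With B6 mice 1 and 4 alone, the changes were -1.53 for Mt3, -0.97 for Mt2 and -0.86 for Mt1, all with an adjusted p of 0.00132 or less in limma. These mice were chosen after the values were seen. They had the lowest Mt1 and Mt2 signals of the B6 mice and still lay above every BTBR/R mouse in Hba-a1. The part of blood in these values was not tested.

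**Figure D2:**
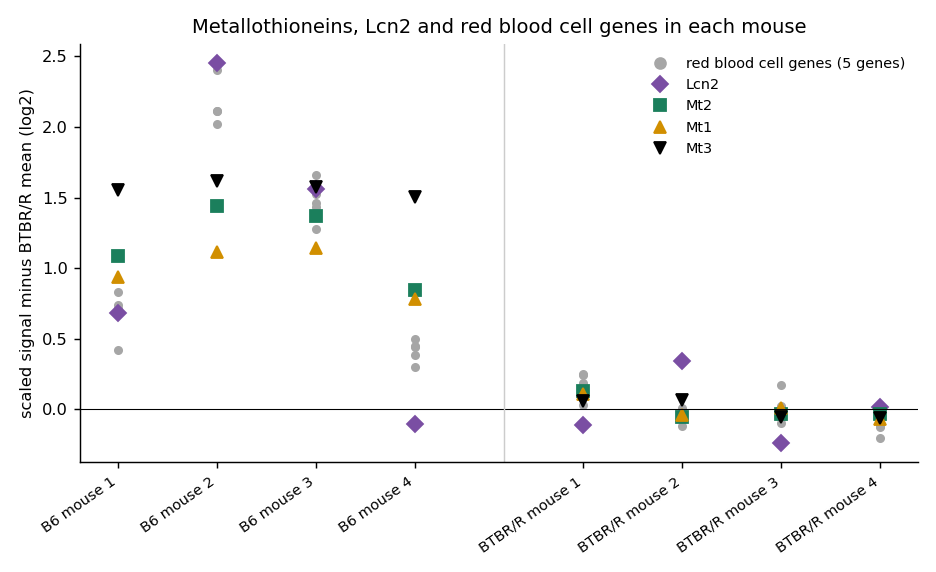
Scaled signal of Mt1, Mt2, Mt3, Lcn2 and 5 red blood cell genes in each mouse, after subtracting the BTBR/R mean of each gene (log2 units). Red blood cell genes, Lcn2, Mt1 and Mt2 are all higher in B6 mice 2 and 3 than in B6 mice 1 and 4, while Mt3 lies near 1.5 above the BTBR/R mean in all 4 B6 mice.

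The 3 genes lie next to each other on chromosome 8, where the probes of Mt3 (chr8:96677927-96677986, mm9), Mt2 (chr8:96697371-96697430) and Mt1 (chr8:96704165-96704224) span 26.3 kb on the same strand. Metals switch metallothionein genes on through the factor Mtf1, which binds metal response elements. The promoters are shown because the 3 genes moved together. They are the reference sequences of RefSeq (GRCm38.p6), from 250 bases before to 50 bases after the annotated start, and capitals mark each match to the core TGCACNC or TGCGCNC on either strand.
Mt1, chr8:94178839-94179138, + strand: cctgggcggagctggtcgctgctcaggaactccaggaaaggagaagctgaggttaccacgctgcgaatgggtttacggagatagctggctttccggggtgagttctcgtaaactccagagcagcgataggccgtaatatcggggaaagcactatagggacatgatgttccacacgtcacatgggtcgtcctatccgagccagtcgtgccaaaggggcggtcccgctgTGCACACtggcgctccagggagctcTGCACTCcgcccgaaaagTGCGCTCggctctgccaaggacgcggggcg
Mt2, chr8:94172368-94172667, + strand: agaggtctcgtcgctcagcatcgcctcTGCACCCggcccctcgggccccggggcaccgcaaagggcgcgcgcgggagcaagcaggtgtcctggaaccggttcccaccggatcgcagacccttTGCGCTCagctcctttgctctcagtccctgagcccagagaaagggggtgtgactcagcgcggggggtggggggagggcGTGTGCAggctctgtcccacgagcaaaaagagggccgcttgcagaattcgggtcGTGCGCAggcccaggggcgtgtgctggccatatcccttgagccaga
Mt3, chr8:94152357-94152656, + strand: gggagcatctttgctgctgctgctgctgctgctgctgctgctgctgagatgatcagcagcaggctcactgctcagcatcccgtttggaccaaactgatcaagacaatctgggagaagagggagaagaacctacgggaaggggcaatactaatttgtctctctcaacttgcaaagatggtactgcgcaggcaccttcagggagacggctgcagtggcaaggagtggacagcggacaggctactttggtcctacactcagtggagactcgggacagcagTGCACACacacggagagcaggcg
The core matched 3 times in the Mt1 window, 4 times in that of Mt2 and once in that of Mt3. Before the annotated start lay 1 match for Mt1, 3 for Mt2 and 0 for Mt3, and the rest lay after it. Of 32851 such windows in the table, 25.7% held at least 1 match, 1.97% at least 3 and 0.517% at least 4. Mtf1 itself was higher, by 0.27 (limma, adjusted p = 0.00287). Of 11 genes of metal handling and of the response to glucocorticoids detected on all arrays, 5 were higher and 1 was lower. Over all probes 13% were higher and 13.9% lower. The higher ones were Mtf1, the cell-cycle inhibitor Cdkn1a (0.65), Pdk4 (0.49), Zbtb16 (0.40) and Per1 (0.33). Per1 did not pass under normexp (limma, adjusted p = 0.0769). The lower one was Tsc22d3 (-0.27). The groups overlapped for Per1 and for Tsc22d3. The lowest change among the 11 was -0.83, in a gene that did not pass. The zinc exporter Slc30a1 changed by -0.03 and did not pass.

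Around the metallothioneins, 21 other probes detected on all 8 arrays lay within 500 kb. These neighbours were looked up after the values had been seen. Of them 1 was higher, 4 were lower and none reached 2-fold (limma). Over all probes 13.9% were lower and 13% higher. Those of the flanking genes Ogfod1, Bbs2 and Nup93 changed by -0.07 to 0.18 and did not pass. The lower ones were both probes of Nudt21 (-0.17 each), that of Gm26843 (-0.75) and the lowest of the 21, with no gene name (-0.78). The higher one was a probe of Rspry1 (0.15). Mt4, the epithelial metallothionein beside Mt3, was detected on 2 arrays.

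**Figure D3:**
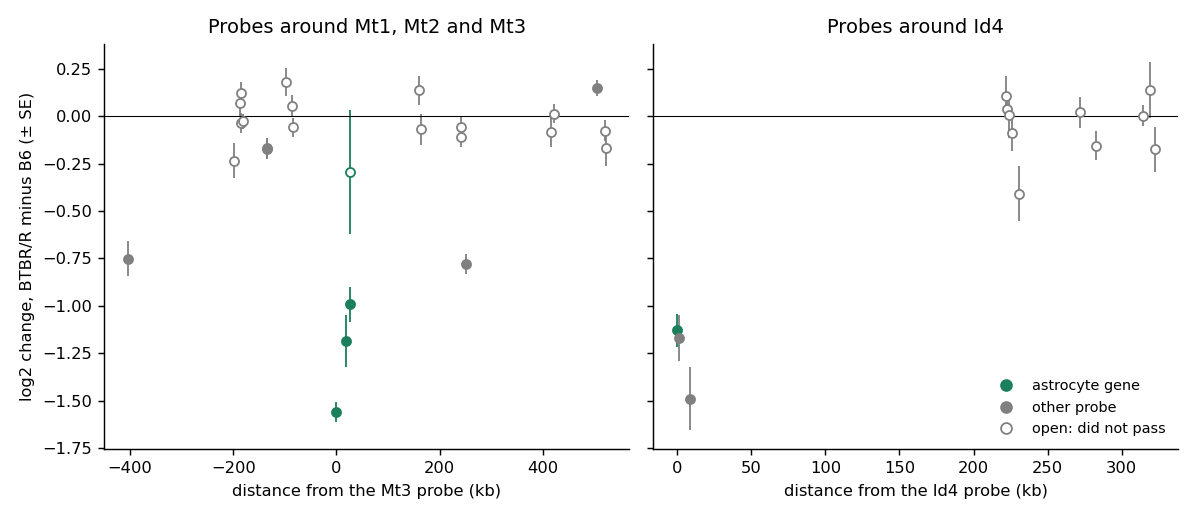
Change of each probe detected on all 8 arrays within 500 kb of the metallothionein genes (left) and of Id4 (right), as the log2 change with its SE, against the distance in kb from the Mt3 or Id4 probe. Green points are astrocyte genes, grey points other probes, and filled points passed. The metallothionein probes stand below their neighbours at -0.99 to -1.56, except the dim second Mt1 probe at -0.29. Beside Id4 at -1.13 lie 2 probes at -1.17 and -1.49.

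Of the regulators and identity markers, 3 of 9 fell, 1 rose and 5 did not pass, where 13.9% of all probes were lower and 13% higher. Id proteins bind other helix-loop-helix factors and keep them from DNA, and they are induced by bone morphogenetic proteins. Id4 read 1.64, 1.65, 1.64 and 1.49 in B6 mice 1 to 4 and 0.50, 0.68, 0.32 and 0.40 in BTBR/R mice 1 to 4. The strains did not overlap, and the change was -1.13 ± 0.09 (SE, limma, adjusted p = 2.76e-05), or 2.19-fold lower. Id3, its relative, read 1.81 to 1.99 in B6 and 1.87 to 2.06 in BTBR/R and changed by 0.05 (95% confidence interval -0.09 to 0.20). Id4 had 1 probe (chr13:48359180-48359239, mm9). Within 500 kb of it, 12 other probes were detected on all 8 arrays, again looked up after the values were seen. The 2 nearest, for the transcripts TC1654523 (1.03 kb away) and A330048O09Rik (8.61 kb away), changed by -1.17 ± 0.12 and -1.49 ± 0.17 (SE; limma, both passed). Under normexp they changed by -0.68 and -1.20, and Id4 by -1.07. None of the other 10 passed.

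In the pathway of the bone morphogenetic proteins and the Id genes, 3 of 14 further genes with detection on every array were lower and 5 higher. Over all probes 13.9% were lower and 13% higher. Id1 read 0.17 to 0.57 in B6 and -0.66 to -0.42 in BTBR/R, a change of -0.88 (limma, adjusted p = 0.000217), and Id2 changed by -0.31. The antagonist Nog, at a low signal, was the other gene that passed lower, by -0.21, and its change was -0.017 under the normexp background correction, where it did not pass (limma, adjusted p = 0.815) and 2 of the 14 genes remained lower. On the side of the ligands and signal carriers, Bmp7 (0.46), Bmp4 (0.39), Bmp6 (0.23), Smad1 (0.27) and the inhibitory Smad7 (0.30) were higher. Under normexp Bmp6 changed by 0.11 and did not pass (limma, adjusted p = 0.184). The receptors Bmpr1a and Bmpr2 changed by 0.02 and 0.0004 and did not pass.

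Aldh1l1, the folate enzyme most often used to mark astrocytes as a whole, read 4.15, 4.23, 4.28 and 3.99 in B6 and 3.84, 3.87, 3.94 and 3.76 in BTBR/R. All BTBR/R mice were below all B6 mice, with a change of -0.31 ± 0.08 (SE, limma, adjusted p = 0.0159). The serine protease Htra1 read 5.38 to 5.44 in B6 and 5.14 to 5.18 in BTBR/R, with a change of -0.25 (limma, adjusted p = 0.00192), and its second probe changed by -0.31. Acsbg1, which activates long chain fatty acids, went the other way: 3.94, 3.82, 3.83 and 3.76 in B6, and 4.02, 4.22, 4.07 and 3.98 in BTBR/R, a change of 0.23 (limma, adjusted p = 0.0324). That call was lost in 9 of 20 other settings, 5 of them fits that leave out 1 mouse, at adjusted p of 0.0515 to 0.171 (limma). The transcription factor Sox9, needed to make astrocytes, changed by -0.18 (95% confidence interval -0.39 to 0.04), and by -0.073 under normexp. Its second detected probe changed by 0.28 (-0.21 to 0.77), so the direction of Sox9 differed between probes. The calcium-binding protein S100b changed by 0.03 (-0.16 to 0.22). Fabp7, a fatty acid carrier of immature astrocytes, was 2.42 ± 0.372 in B6 and 2.78 ± 0.153 in BTBR/R (mean ± SD, n = 4 each), with overlapping groups and a change of 0.36 (-0.07 to 0.80).

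Gli1 is switched on by hedgehog signals from neurons. It read -0.98, -1.83, -1.28 and -1.55 in B6 and -0.88, -1.11, -1.04 and -1.07 in BTBR/R, and its change of 0.38 (-0.03 to 0.79) did not pass. B6 mouse 1 lay inside the BTBR/R range, and without it the change was 0.53 (limma, adjusted p = 0.0257). Without B6 mouse 2, the lowest, it was 0.24 (limma, adjusted p = 0.240). Of 10 other hedgehog pathway genes detected on all arrays, the receptor and target Ptch1 was lower (-0.63 ± 0.06, limma, adjusted p = 8.14e-05) and the co-receptor Boc higher (0.21), and 8 did not pass.

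Of the 4 genes of glutamate and amino acid handling, 2 fell and 2 did not pass (all probes: 13.9% lower, 13% higher). Slc1a2 (GLT-1), which takes up most of the glutamate in the forebrain, read 4.49, 4.48, 4.50 and 4.34 in B6 and 4.10, 4.25, 4.17 and 4.18 in BTBR/R. The change was -0.28 ± 0.06 (SE, limma, adjusted p = 0.00642), 1.21-fold lower, with no overlap. Glul, the glutamine synthetase that converts the glutamate taken up, read 5.78 to 5.88 in B6 and 5.65 to 5.70 in BTBR/R, a change of -0.16 (limma, adjusted p = 0.0221), which did not pass in 5 of 20 other settings. Its other 2 detected probes changed by -0.10 and -0.12 and did not pass. Slc1a3 (GLAST), the second astrocyte glutamate transporter, changed by -0.08 (95% confidence interval -0.26 to 0.10). Its second detected probe changed by 0.22 (0.03 to 0.42) and did not pass (limma, adjusted p = 0.0694). The difference between the changes of Slc1a2 and Slc1a3 was not tested. Slc7a11, the exchanger that brings in cystine for glutathione, changed by 0.08 (-0.06 to 0.22). Of 14 genes of glutathione and of the oxidative stress response, glutathione reductase Gsr was higher (0.43, limma, adjusted p = 0.000183), the glutathione-degrading Chac1 lower (-0.52), and 12 did not pass.

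Of the water, ion, urea and junction proteins, 2 of 8 fell and 1 rose, the latter near the 13% of all probes that were higher (13.9% were lower). The connexin Gjb6 read 3.13, 3.11, 3.16 and 2.83 in B6 and 2.63, 2.57, 2.61 and 2.54 in BTBR/R. Its change was -0.47 ± 0.08 (SE, limma, adjusted p = 0.0026), 1.38-fold lower, and the second probe gave -0.49. Gja1, the other main astrocyte connexin, changed by -0.09 (95% confidence interval -0.24 to 0.06), and its other 3 detected probes by 0.02 to 0.22. Aqp4, the water channel of the end-feet, read 1.67, 1.65, 1.48 and 1.60 in B6 and 1.27, 1.51, 1.33 and 1.17 in BTBR/R, so that BTBR/R mouse 2 lay above B6 mouse 3. Its change was -0.28 (limma, adjusted p = 0.0315), with -0.27 and -0.04 for the other 2 detected probes, the last of which did not pass. The Aqp4 call was lost in 9 of 20 other settings, 6 of them fits that leave out 1 mouse, at adjusted p of 0.0633 to 0.0905 (limma). Slc14a1, the urea transporter, was the gene with the largest rise of the 3 members that rose: it read -0.27, -0.69, -0.47 and -0.51 in B6 and -0.15, 0.05, 0.07 and -0.23 in BTBR/R, a change of 0.42 ± 0.11 (SE, limma, adjusted p = 0.0188), which did not pass in 3 of 20 other settings. Its second probe gave 0.27 and did not pass. Mlc1 and Hepacam, which form a membrane complex at the end-feet, the bicarbonate transporter Slc4a4 and the sodium pump subunit Atp1b2 changed by -0.15 to 0.06 and did not pass. A Slc4a4 probe detected on 4 B6 and 2 BTBR/R arrays passed at -0.61 (limma, adjusted p = 0.0309), and at -0.29 under normexp. Another, detected on 3 B6 and 0 BTBR/R arrays, passed at -0.74 (limma, adjusted p = 0.00902). Under normexp it changed by -0.096 and did not pass.

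Of the receptors, secreted proteins and other enzymes, 5 of 11 fell and 1 rose, beside 13.9% of all probes lower and 13% higher. Ppap2b (Plpp3 in the current RefSeq), which breaks down lysophosphatidic acid outside the cell, read 4.01, 4.07, 4.02 and 3.95 in B6 and 3.60, 3.37, 3.49 and 3.38 in BTBR/R, a change of -0.55 ± 0.06 (SE, limma, adjusted p = 0.00033), 1.47-fold lower. Aldoc, the brain aldolase of glycolysis, read 8.18, 8.12, 8.19 and 8.00 in B6 and 7.71, 7.80, 7.87 and 7.67 in BTBR/R. Its change was -0.36 (limma, adjusted p = 0.00433), and all 3 of its probes passed, at -0.36 to -0.45. The phospholipase Pla2g3 (-0.31), the carboxypeptidase Cpe (-0.19) and the chaperone Clu (-0.16) were lower with adjusted p of 0.0449, 0.0152 and 0.0318 (limma), and Cpe and Clu were only 1.14-fold and 1.12-fold lower. Of 20 other settings, Pla2g3 lost its call in 9, Clu in 8 and Cpe in 3. Ntsr2, the low-affinity neurotensin receptor of astrocytes, was higher: 4.11, 4.21, 4.27 and 4.01 in B6 against 4.44, 4.50, 4.55 and 4.36 in BTBR/R, a change of 0.31 ± 0.07 (SE, limma, adjusted p = 0.0117). Fgfr3, Dio2, F3 and Sparcl1 changed by -0.18 to 0.01 and did not pass. Agt, angiotensinogen, which astrocytes make in the brain, read 2.47, 0.92, 1.18 and 0.92 in B6 and 1.28, 1.65, 1.13 and 0.64 in BTBR/R. B6 mouse 1 was far above the rest, and the interval of the change was the widest of the 37 members, from -1.10 to 0.71.

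The filament proteins of reactive astrocytes did not pass. Gfap read 1.75, 1.58, 1.59 and 1.54 in B6 and 1.71, 1.91, 1.41 and 1.45 in BTBR/R, and its change was 0.01 (95% confidence interval -0.27 to 0.29). The groups overlapped, and a second Gfap probe changed by -0.04. Vim changed by 0.09 (-0.05 to 0.23). Lcn2, a secreted iron-binding protein of reactive astrocytes, read -2.69, -0.92, -1.81 and -3.48 in B6 and -3.48, -3.03, -3.61 and -3.36 in BTBR/R, and its change of -1.15 (-2.35 to 0.06) did not pass. B6 mouse 4 lay within the BTBR/R values, and without that mouse the change was -1.56 (limma, adjusted p = 0.0257). Without B6 mouse 2, the highest, it was -0.71 (limma, adjusted p = 0.210), and with B6 mice 1 and 4 alone -0.29 (limma, adjusted p = 0.502). Under normexp it was -0.74 (limma, adjusted p = 0.134). Of 8 other genes of the reactive state that is shared by injury and inflammation, Serpina3n, a protease inhibitor, was higher, at -2.83 to -2.50 in B6 against 0.88 to 1.09 in BTBR/R, a change of 3.64 ± 0.09 (SE, limma, adjusted p = 1.03e-06). Cd44, a hyaluronan receptor, was higher by 0.62, or by 0.33 under normexp, and 6 did not pass. Of 10 genes listed for inflammation, Fbln5 was higher (0.40) and Iigp1 lower (-0.58, with overlapping groups), and under normexp Iigp1 changed by -0.22 and did not pass (limma, adjusted p = 0.147). Of 6 listed for ischaemia, Ptgs2 (0.88) and Sphk1 (0.31) were higher and Tm4sf1 (-0.50) and S100a10 (-0.36) lower.

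**Figure D4:**
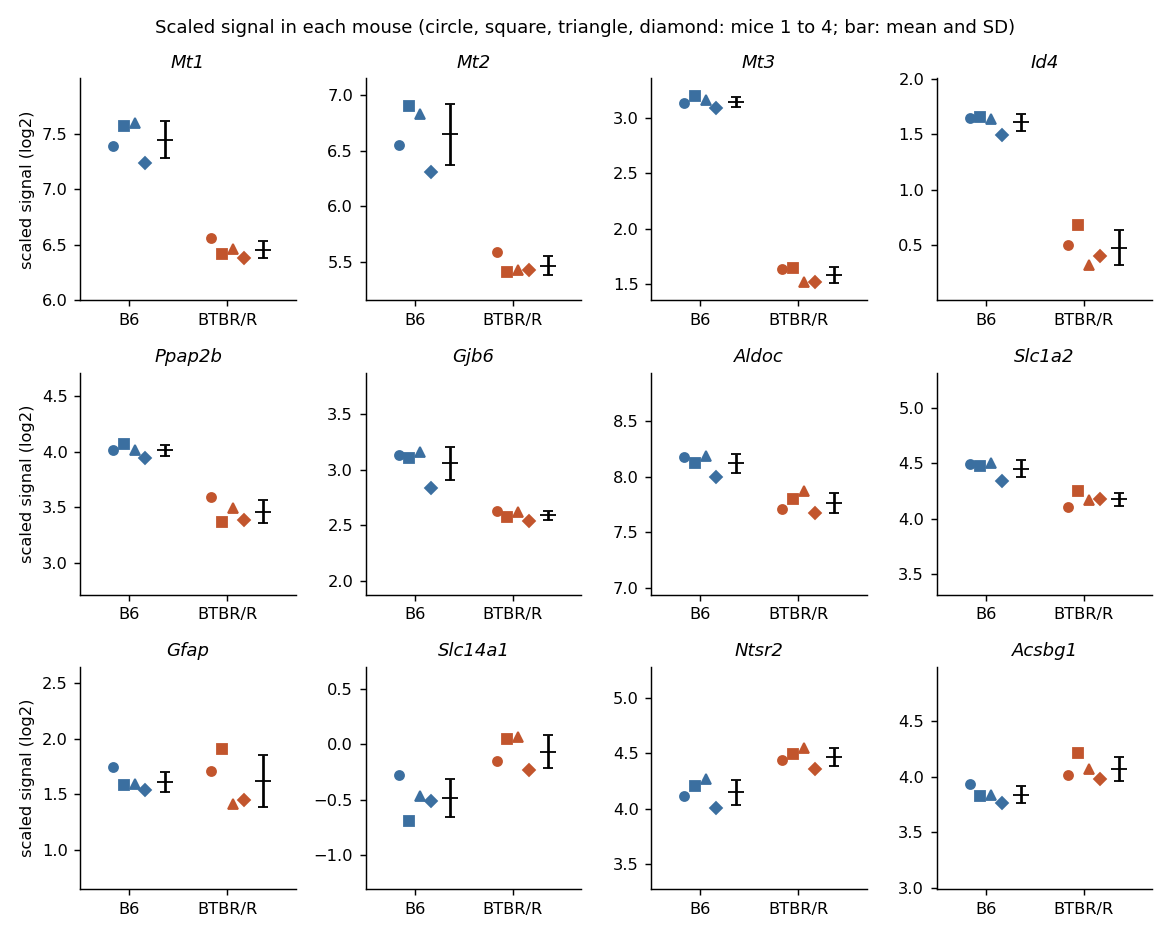
Scaled signal (log2) of 12 astrocyte genes in each mouse, with a vertical span of 2 units in every panel, so that distances can be compared between panels. Symbols mark mice 1 to 4 of each strain, and the bar gives the mean and SD (n = 4). The strain means of Mt1, Mt2, Mt3 and Id4 differ by about 1 unit or more and those of Ppap2b, Gjb6, Aldoc and Slc1a2 by less. Gfap overlaps, and Slc14a1, Ntsr2 and Acsbg1 are higher in BTBR/R.

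Several probes gave a check on the same gene. Of 15 members with more than 1 probe detected on all 8 arrays, 11 had all probes of one sign and 4 had probes of both signs, namely Sox9, Slc1a3, Gja1 and Gfap. In none of the 15 did probes detected on all 8 arrays pass in both directions. Of the probes detected on only some arrays, 3 passed against a representative probe that passed the other way. That of Slc1a2, detected on 2 B6 arrays, was higher by 0.76 (limma, adjusted p = 0.0267) and under normexp by 0.36 (limma, adjusted p = 0.0212). That of Acsbg1, detected on 1 B6 array, changed by -0.68 and that of Clu, detected on 1 BTBR/R array, by 1.92, and under normexp they changed by -0.096 and 0.41 and did not pass. Against the Gja1 representative, which did not pass at -0.09, a probe detected on 1 BTBR/R array passed at 2.02 (limma, adjusted p = 0.0336) and did not pass under normexp, at 0.45. Another Gja1 probe, detected on 4 B6 and 0 BTBR/R arrays, passed at -0.36 (limma, adjusted p = 0.0411). It did not pass under normexp, at -0.18. Among the probes detected on all 8 arrays, every one passed for Aldoc, Gjb6 and Htra1, and none passed for 8 of the 15 genes. Among 4 member probes detected on no array, those of Slc1a3, Aqp4 and Fgfr3 came out higher in BTBR/R by 1.20 to 1.49, and under the normexp background correction these changes were -0.14 to -0.05. They are left out of every count.

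A further 50 astrocyte markers detected on all arrays showed 7 lower, 3 higher and 40 that did not pass, with a median change of -0.04. Over all probes, as above, 13.9% were lower and 13% higher. The fatty acid transporter Slc27a1 was lowest (-0.76, limma, adjusted p = 2.76e-05), followed by Scara3 (-0.39), the proline oxidase Prodh (-0.30) and the receptor Gpr37l1 (-0.28). The citrate transporter Slc13a5 was highest (0.65, limma, adjusted p = 0.000642), followed by Dbx2 and Scrg1 (both 0.20). The potassium channel Kcnj10 and the lipid carrier Apoe changed by 0.05 and -0.04 and did not pass.

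Genes of other cell types were counted in the same way, where 13.9% of all probes were lower and 13% higher. Of 10 oligodendrocyte genes 4 were lower, among them Mobp (-0.80), Ermn (-0.64) and Mog (-0.35), and the mean level of the list was 3.40 to 3.74 in B6 and 3.15 to 3.36 in BTBR/R. Of 11 microglia genes 6 were lower and 1 higher, with C1qb at -1.42, Cx3cr1 at -0.71, Trem2 at -0.59, C1qa at -0.35 and P2ry12 at 0.22, and the mean level was 3.01 to 3.05 in B6 and 2.66 to 2.79 in BTBR/R. Of 11 endothelial and mural genes 2 were lower (Cldn5 -0.51, Ly6c1 -0.29), of 11 neuron genes only Nefl (-0.75), and of 6 genes of oligodendrocyte precursors none passed. Every gene of the neuron, oligodendrocyte, precursor and microglia lists was detected on all 8 arrays. The part of other cells in the changes of the astrocyte genes was not tested.

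**Figure D5:**
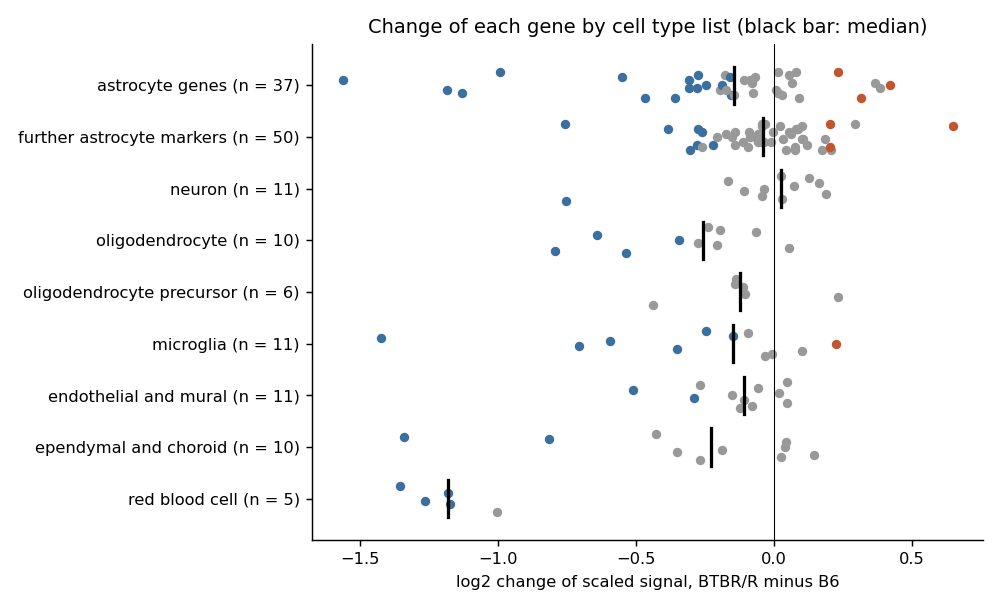
Change of each gene (log2, BTBR/R minus B6) in the list of astrocyte genes, in a list of further astrocyte markers and in lists for other cell types, for genes detected on all 8 arrays. Blue and red points passed lower and higher, grey points did not, and black bars are medians, at -0.15 for the astrocyte genes, -0.04 for the further markers and -1.18 for the red blood cell genes.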

How the data were processed

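Total RNA of the cortex and striatum of 8 mice was labelled with Cy3 and hybridised to Agilent 1-colour mouse arrays. The deposited scanner files hold the signal intensity of each spot, which the authors obtained with Agilent Feature Extraction 10.7.3.1 (submitters' processing notes), with background subtracted and no normalization between arrays. The authors also deposited log2 values made with GeneSpring GX. On every array these values equal the log2 processed signal minus a constant for all probes with 1 spot, within 0.01. Here, control and outlier spots were removed, spots of a probe were averaged, and log2 processed signals were scaled to the 75th percentile of each array. The comparison of BTBR/R with B6 was fitted over 56605 probes with limma 3.58.1 in R 4.3.3 (lmFit and eBayes, two-sided) and adjusted by Benjamini-Hochberg. Detection is the flag for a signal well above background. The representative probe of a gene was the one detected on the most arrays, with ties given to the highest mean processed signal. All members are named, and from each other list up to 4 genes per direction with the largest change among those that passed, with others named as chosen for their role. In simulated arrays 200 of 56583 probes were changed. Of these, 64 of 100 changed by 0.5 (log2) and 97 of 100 changed by 1.5 passed, as did 14 unchanged probes. In the real fit 22234 of 56605 probes passed, so the adjusted threshold differs and these rates do not carry over to it. The number of arrays limits the precision. Gene positions are in mm9 as the files give them. Of 60 member probes with a RefSeq accession, 55 matched the RefSeq table, 1 of them under another symbol, and promoters came from RefSeq (GRCm38.p6). Replicate numbers did not pair the mice. The alternatives were normexp (offset 50), quantile and 2 other scalings, the authors' values, filters on dim probes, the methods' t-test, limma with trend and robust variance, a replicate block, the median over probes (for the counts alone) and leaving out mice; a floor at the highest detection limit and a fit with B6 mice 1 and 4 alone were chosen after seeing the data. The members and lists were chosen with earlier results of these data known. The value of 1 oligodendrocyte gene is not reported here.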

Additional observations from a re-analysis of the deposited data

Results flagged for a closer look

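In groups of 4 mice, a single mouse lay apart by Dixon's ratio (the gap to the nearest mouse over the range) in 21 of 218 groups, or 9.63%, where chance gives about 1 in 20. B6 mouse 4 was the lowest apart from the other B6 mice for Id4 (0.928), Slc1a2 (0.854), Gjb6 (0.846), Clu (0.860), the third Aldoc probe (0.883) and Tm4sf1 (0.834), and the highest for Cdkn1a (0.857). B6 mouse 1 was the highest for Htra1 (0.873), Hepacam (0.832), Pla2g3 (0.866) and the second probes of Slc1a3 (0.873) and Glul (0.971). B6 mouse 2 was the highest for Slc1a3 (0.833) and B6 mouse 3 for Bmp7 (0.875). In BTBR/R, mouse 1, the 6 month old mouse, was the highest for Mt2 (0.871), Pdk4 (0.957) and Hbb-bt (0.846), mouse 2 for a second Gja1 probe (0.840) and Slc27a1 (0.892), and mouse 4 for Nefl (0.841) and Fezf2 (0.957). Without BTBR/R mouse 1 the change of Mt2 stayed between -1.30 and -1.10, the range over all fits that leave out 1 mouse.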

How the results depend on the processing

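Of the 18 genes that passed, 8 stayed past the threshold in all 20 settings, and 10 lost it in at least 1: Acsbg1, Aqp4 and Pla2g3 in 9 settings each, Clu in 8, Glul in 5, Cpe and Slc14a1 in 3, and Aldh1l1, Slc1a2 and Aldoc in the fit with B6 mice 1 and 4 alone. None of the 18 changed direction. The count of genes that were higher was 3 and fell to 1 with a floor at the highest detection limit and to 1 with B6 mice 1 and 4 alone, where the count of genes that were lower was 7 instead of 15, while 7.39% instead of 13.9% of all probes were lower. With the floor, 11% of all probes were higher. Leaving out each mouse in turn gave 2 to 4 higher, 11 to 15 lower and 3 to 4 changed by at least 2-fold, in fits where 9.7% to 11.3% of all probes were higher and 10.5% to 12% lower. Dio2 passed without BTBR/R mouse 2, and Sparcl1 in limma with trend and robust variance. Changes of 6 genes that did not pass turned in sign, all near 0 except Agt. Under normexp, changes of dim genes outside the list were smaller, at -0.017 for Nog and -0.22 for Iigp1, which no longer passed, and 0.33 for Cd44, -0.78 for Tmem212 and -0.50 for Foxj1. Hbb-bt and Fezf2 also no longer passed there (limma, adjusted p = 0.0510 and 0.0536), Atp1b2 was 0.034 and Fgfr3 -0.031. The changes of Vim (0.026), Slc4a4 (-0.021) and Slc7a11 (0.037) were smaller there too. Under median scaling, S100b was -0.00051, Fgfr3 -0.015, F3 -0.016 and Gfap -0.021. Gfap was -0.0020 under quantile normalization and -0.0050 with the percentile of detected probes. With B6 mice 1 and 4 alone, S100b was -0.014, Fgfr3 -0.11 and Gfap -0.021. Over the fits that leave out 1 mouse, S100b ran from -0.030 to 0.079, Fgfr3 from -0.044 to 0.082, F3 from -0.046 to 0.062, Gfap from -0.088 to 0.077 and Agt from -0.35 to 0.17, the last without B6 mouse 1. The causes of these shifts were not tested. Slide could not be fitted as a block, since all arrays shared 1 slide.

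With the replicate number as a block, 1 gene was higher, 11 were lower and 3 changed by at least 2-fold, while 8.29% of all probes were higher and 9.5% lower. The correlations of mice with the same number ran from -0.07 to 0.16, so the numbers were not taken as pairing, and no sample pair was crossed.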

Other observations

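Of 10 genes of the ependyma and choroid plexus, the ciliary genes Tmem212 (-1.34, and -0.78 under normexp) and Foxj1 (-0.81, and -0.50 under normexp) were lower and 8 did not pass (limma). The mean level of that list ran from -1.61 to 0.04 over the B6 mice and from -1.34 to -0.76 over the BTBR/R mice. Of genes that mark the dissected regions, Pde10a of striatal neurons was lower (-1.07, 1 of 8), and in the cortical list Fezf2 was higher (0.32) and Rorb lower (-0.39, 2 of 6 passed in all), while under normexp Fezf2 did not pass (limma, adjusted p = 0.0536) and Rorb changed by -0.25.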
